A study of Mus musculus with 4 samples.

Results

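The Hoxa, Meis, Pbx and Hlf genes described here are 9 transcription factor genes of blood progenitors: Hoxa5, Hoxa7, Hoxa9, Hoxa10, Meis1, Pbx2, Pbx3, Pknox1 and Hlf. Every non-control probe that the array annotation names for one of them was taken, which gave 13 probes of 9 genes, out of 41174 probes under 28149 gene names. Of these, 9 probes of 7 genes were bright enough to be tested; Hoxa5 and Hoxa10 stayed near background on all 4 arrays. The tested cells were immature granulocytes from miR-223 knockout mice (miR-223 is a microRNA made mainly in myeloid cells), and the controls were the same kind of cell from wild-type mice. All mice were male C57BL/6. For both genotypes, marrow was grown for 4 days in GM-CSF at 40 ng/ml, a cytokine for granulocyte and macrophage growth, and the expanding immature granulocytes were then sorted. RNA of each of 4 samples, 2 miR-223 knockout and 2 wild type, was labelled with Cy3 and hybridised to a 1-colour Agilent mouse array. The comparison asks which of these factors differ in RNA level when miR-223 is absent.

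HOXA proteins bind DNA through a homeodomain and gain specificity by pairing with the TALE homeodomain proteins, the families PBX, MEIS and PKNOX. PBX proteins bind DNA together with HOX proteins, and MEIS and PKNOX proteins each bind PBX and compete for it. In the blood system Hoxa9 and Meis1 are high in stem and early progenitor cells, decline as myeloid cells mature, and drive acute myeloid leukaemia when they stay on. HLF is a leucine zipper protein of the PAR family, known as a marker and regulator of blood stem cells. Pknox1, also called Prep1, has been named in the literature as a direct miR-223 target.

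The share of probes well above background ran from 57.6% to 63.5% per array, and 0 non-control spots were saturated. The knockout arrays correlated at 0.994 and the wild-type arrays at 0.989 across tested probes, against 0.985 to 0.991 between genotypes (Pearson's r, a description across probes). All 16 measured granulocyte genes were well above background in both genotypes, among them Lcn2 and Ngp, which encode neutrophil granule proteins. The deletion itself could not be checked, since no probe for Mir223 was analysed here. Whether the replicates are separate animals is not labelled, so p-values measure only the spread between these samples, which may be technical. Bulk RNA also cannot tell fewer cells of a type from less RNA per cell.

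The 2 mature arms of the missing microRNA are shown because the seed decides which transcripts can pair with it. The sequences are those of RefSeq (GRCm38.p6, X chromosome, plus strand; miR-223-3p at chrX:96242884-96242905), with the seed, bases 2 to 8, in capitals.
mmu-miR-223-3p: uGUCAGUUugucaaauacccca
mmu-miR-223-5p: cGUGUAUUugacaagcugaguug
The reverse complement of the miR-223-3p seed, AACTGAC, lay in 1 of the 13 member probes, against 153 of all 41174 probes (0.372%). It was the second Meis1 probe, whose bases 32 to 60 are shown with the match in capitals, beginning at base 53 of the probe.
Meis1 probe 2: tgtaacaagatcagcaaatctAACTGACc
The shorter match ACTGAC, to bases 2 to 7, was in 1 of 13 member probes, the same one, and in 581 of all probes (1.411%). A probe covers a short stretch of its transcript, so these letters say nothing about the rest, and 3′ untranslated regions were not analysed here. The Pknox1 probe held neither match.

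None of the 9 tested member probes passed an adjusted p of 0.05 (limma, Benjamini-Hochberg over 25055 probes), where 0.012% of all probes did. Of the probes whose RNA level differed at an unadjusted p under 0.05, Hlf and Pknox1 were higher in knockout (2 of 9 probes, background 7.72%) and 1 Meis1 probe was lower (1 of 9, background 5.26%). The knockout arrays were both higher than either wild-type array for 5 member probes, those of Hlf and Pknox1, both Pbx2 probes and 1 Pbx3 probe, and this held for 27.6% of all tested probes. They were both lower for 2 member probes, Hoxa9 and Meis1, against 19.4% of all. Together 7 of the 9 showed no overlap, where 47% of all tested probes did. The members' knockout minus wild-type difference thus ran in both directions, positive for 5 probes and negative for 4, with a median of 0.18 on the log2 scale. The median over all tested probes was 0.03, and 55.2% of them were positive. Over the same 9 probes, the member median was 0.05 without wild type replicate 1 and 0.12 to 0.15 without each of the other arrays. A missed threshold does not show that levels were alike. With 2 samples per group an exact permutation test cannot give a p below 0.333, so the fit across all probes is the test used throughout.

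**Figure D1:**
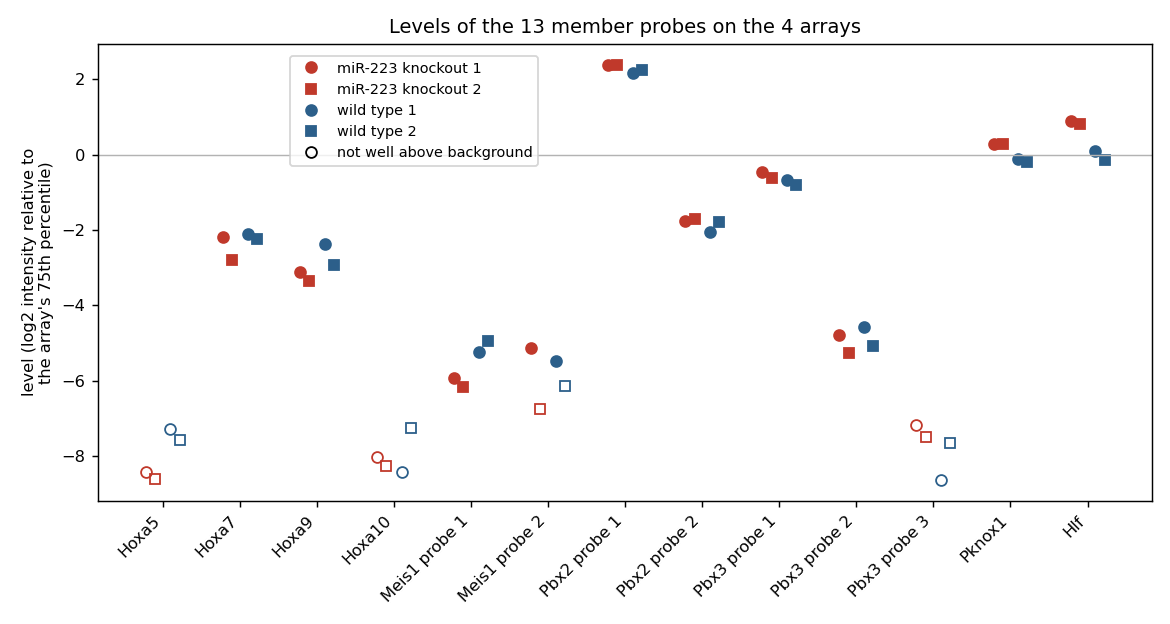
Level of each of the 13 member probes (x axis) on each of the 4 arrays, as log2 intensity relative to that array's 75th percentile (y axis). Red marks are the 2 miR-223 knockout arrays and blue marks the 2 wild-type arrays, and open marks were not well above background. The red marks lie above the blue for Pknox1 and Hlf and below them for Hoxa9 and the first Meis1 probe.

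Of the 4 Hoxa genes, only Hoxa7 and Hoxa9 gave a signal, and both averaged lower in knockout without passing the test. Hoxa9, the Hoxa gene most closely tied to progenitor self-renewal and leukaemia, had levels of -3.12 and -3.36 on the knockout arrays, against -2.39 and -2.93 on the wild-type arrays. A level is the log2 intensity minus the array's 75th percentile, so 0 marks a probe as bright as that percentile. Both knockout arrays were below both wild-type arrays, though the gap between the wild-type arrays was wider than that from wild-type array 2 to knockout array 1. The log2 difference was -0.58 ± 0.23 (SE, n = 2 per group), or 1.49-fold lower, with a 95% interval of -1.19 to 0.03 and an adjusted p of 0.401 (limma). It was -0.30 without wild type replicate 1 and -0.35 with another background correction (normexp). The probe lies on chromosome 6 at 52174269 to 52174328 (mm9, minus strand).

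Hoxa7, a neighbour of Hoxa9 in the cluster and likewise a progenitor gene, was at -2.19 and -2.81 in knockout and at -2.12 and -2.25 in wild type. Knockout array 2 was the lowest of the 4, and knockout array 1 lay between the wild-type arrays, so the genotypes overlapped. The difference was -0.31 ± 0.24 (95% interval -0.95 to 0.33; adjusted p = 0.625, limma), and without miR-223 knockout replicate 2 it was -0.00. Hoxa5 had levels of -8.41 and -8.62 in knockout and -7.27 and -7.56 in wild type, and Hoxa10 had levels of -8.02 and -8.27 in knockout and -8.42 and -7.24 in wild type. Hoxa5 and Hoxa10 are both progenitor genes of the same cluster, and on none of the 4 arrays was either probe well above background, so no fold is given for either.

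Meis1, the partner of HOXA9 in stem cells and leukaemia, was dim, and its 2 probes did not show the same pattern. The probe at 18781206 to 18781265 of chromosome 11 (mm9, minus strand) had levels of -5.93 and -6.17 in knockout, against -5.22 and -4.95 in wild type. It was well above background on all 4 arrays, and the knockout arrays were the 2 lowest. The log2 difference was -0.97 ± 0.17 (SE, n = 2 per group; 1.95-fold lower; unadjusted p = 0.00324, adjusted p = 0.252, limma), the most negative among the members. These levels correspond to processed intensities of only 8.4 and 6.8 in knockout and 15.7 and 15.8 in wild type. Raw spot signals before background subtraction were 32.7 and 30.2 in knockout against 39.3 and 43.4 in wild type, over a local background of 20 to 25 on these arrays. With normexp background correction (offset of 50 intensity units) the difference was -0.18 (adjusted p = 0.922).

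The second Meis1 probe, which carries the AACTGAC shown above, lies at 18911247 to 18911306 (mm9). Its levels were -5.14 and -6.75 in knockout and -5.48 and -6.14 in wild type. Replicate 1 of each genotype was above background and replicate 2 was not, and the genotypes overlapped, with the highest and the lowest value both in knockout. It was therefore not tested.

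The Pbx genes, which encode the shared DNA-binding partners of HOX and MEIS proteins, showed differences close to their errors. The Pbx2 probe at 34733355 to 34733414 of chromosome 17 (mm9) was at 2.38 and 2.37 in knockout and at 2.16 and 2.24 in wild type, a log2 difference of 0.18 ± 0.13 (95% interval -0.15 to 0.51; adjusted p = 0.594, limma). The other Pbx2 probe, at 34731746 to 34731805, was at -1.76 and -1.70 in knockout and at -2.05 and -1.78 in wild type. Its difference was 0.19 ± 0.15, and 0.05 without wild type replicate 1. Knockout arrays were above wild-type arrays for both probes, by a margin smaller than the spread between the wild-type arrays for the second.

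Pbx3, a PBX gene that leukaemias with high Hoxa9 and Meis1 often express, has 3 probes on chromosome 2. The probe for its RefSeq transcript, at 34027483 to 34027542 (mm9), had levels of -0.46 and -0.62 in knockout and -0.68 and -0.80 in wild type. The knockout arrays were again the higher ones, and the difference was 0.20 ± 0.14 (95% interval -0.17 to 0.56; adjusted p = 0.591, limma). The probe at 34223741 to 34223800, designed on a complementary DNA clone, was at -4.78 and -5.28 in knockout and at -4.56 and -5.08 in wild type. Here the genotypes overlapped, and the difference of -0.21 ± 0.27 became 0.05 without wild type replicate 1 and 0.04 without miR-223 knockout replicate 2. The third probe, at 34030520 to 34030579, was at -7.17 and -7.49 in knockout and at -8.63 and -7.65 in wild type, and was at background on all 4 arrays.

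Pknox1, whose protein takes the place of MEIS in complexes with PBX, was at 0.28 and 0.27 in knockout, against -0.12 and -0.19 in wild type. The arrays of each genotype lay close together, and both knockout arrays were above both wild-type arrays. The log2 difference was 0.43 ± 0.12 (SE, n = 2 per group; 1.35-fold higher; 95% interval 0.10 to 0.76; unadjusted p = 0.0202, adjusted p = 0.323, limma). By p it ranked 1563 among 25055 probes. Over the 12 other settings the difference ran from 0.39 to 0.46, the narrowest range among the member probes, and the adjusted p from 0.25 to 0.893. The probe lies at 31744266 to 31744325 of chromosome 17 (mm9, plus strand). Genes beside Pknox1 in the RefSeq gene order, looked up after these values were seen, went both ways: Ndufv3, a subunit of respiratory complex I, was at 0.52 ± 0.13 and Wdr4, a transfer RNA methylation factor, at -0.36 ± 0.15, and neither passed (adjusted p 0.287 and 0.406, limma).

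Hlf had the largest positive difference of the member probes. Its levels were 0.90 and 0.82 in knockout, against 0.09 and -0.14 in wild type. Both knockout arrays were above both wild-type arrays, and the gap between genotypes was wider than the spread within either. The log2 difference was 0.89 ± 0.15 (SE, n = 2 per group; 1.85-fold higher; 95% interval 0.50 to 1.27; unadjusted p = 0.00235, adjusted p = 0.252, limma), rank 224 by p. The probe stood clear of background, with processed intensities of 959.6 and 870.8 in knockout and 622.9 and 440.9 in wild type, and normexp left the difference at 0.81. It was at least 0.77 in each of the 12 other settings. The lowest adjusted p among them was 0.0851, when wild type replicate 1 was left out, and the highest 0.696, when dim probes were not filtered. The probe lies at 90199978 to 90200037 of chromosome 11 (mm9, minus strand).

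**Figure D2:**
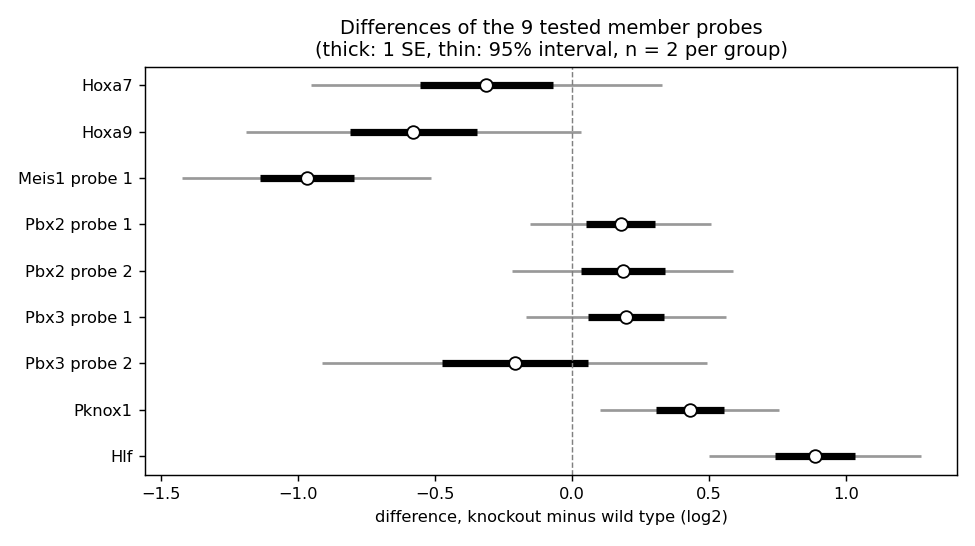
Knockout minus wild-type log2 difference (x axis) of the 9 tested member probes (y axis), with 1 SE as a thick bar and the 95% interval as a thin line, n = 2 arrays per genotype. The intervals of Meis1 probe 1, Pknox1 and Hlf do not reach 0, and those of the other 6 probes do; the intervals are not adjusted for the number of probes.

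The promoter of Hlf is shown because Hlf had the largest positive difference. The window is chr11:90390868-90391167 (RefSeq, GRCm38.p6, minus strand), 250 bases before to 50 after the start, with the matches in capitals.
Hlf promoter: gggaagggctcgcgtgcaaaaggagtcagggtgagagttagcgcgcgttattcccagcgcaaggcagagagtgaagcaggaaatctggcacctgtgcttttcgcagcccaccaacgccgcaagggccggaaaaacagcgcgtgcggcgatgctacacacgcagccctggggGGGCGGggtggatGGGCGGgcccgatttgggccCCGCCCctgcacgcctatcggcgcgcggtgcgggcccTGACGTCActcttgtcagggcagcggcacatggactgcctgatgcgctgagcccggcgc
The capitals are 3 GC boxes (GGGCGG on either strand) and 1 cyclic AMP response element (TGACGTCA). Windows were found for 7 member genes, 8 in all since Hoxa10 has 2. Motifs of the members' own protein families were searched on both strands. The PBX-HOX site TGATNNAT, the MEIS and PKNOX site TGACAG and the PAR leucine zipper site TTANGTAA were in 0 of the 8 windows, against 8.85%, 19.18% and 2.32% of 32851 mouse windows of the same length. TGACGTCA was in the Hlf window alone (1 of 8, against 1.79%), and GGGCGG in 4 of 8, against 35.66%. The GC box and cyclic AMP motifs were added after the windows had been read. The matches shown do not overlap each other, and they describe letters only.

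The genes that flank Hlf on chromosome 11 were also looked up after its value was seen. Mmd, a membrane protein gene of macrophage differentiation, had levels of -0.42 and -0.51 in knockout and -1.02 and -1.39 in wild type. Its difference was 0.74 ± 0.18 (adjusted p = 0.282, limma), with both knockout arrays higher. On the other side Cox11, a cytochrome oxidase assembly gene, was at -0.20 ± 0.14 (adjusted p = 0.584, limma). Tmem100 and Stxbp4, the other flanking genes, were too dim to be tested.

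**Figure D3:**
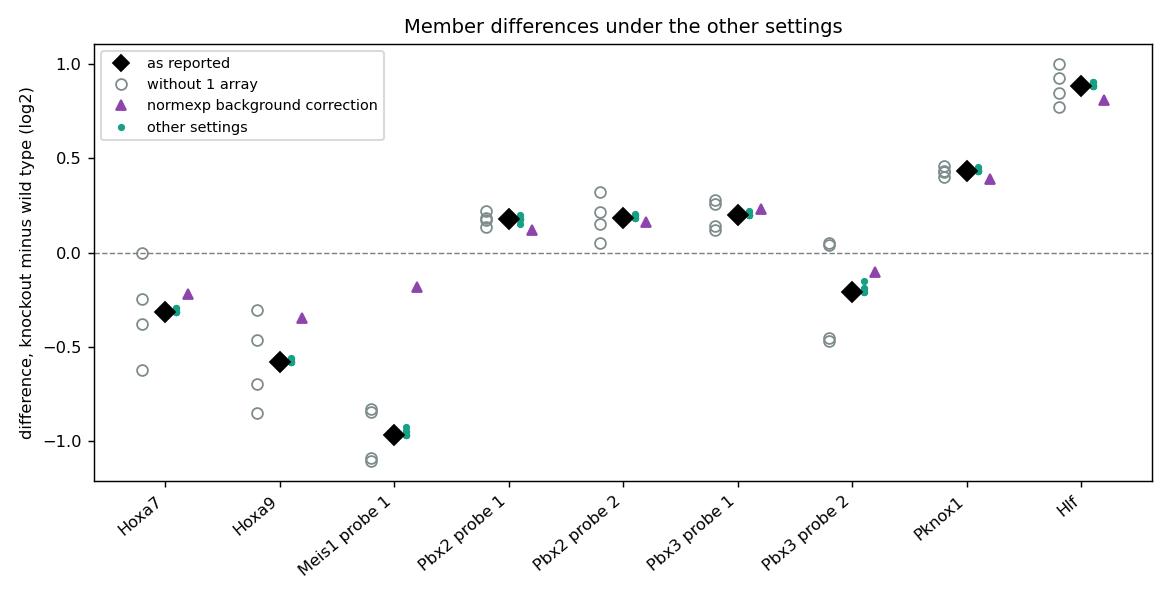
Knockout minus wild-type log2 difference (y axis) of the 9 tested member probes (x axis) as reported (black), with 1 array left out (open circles), with normexp background correction (triangles) and under the other settings (small dots). Hlf and Pknox1 stay clear of 0, Meis1 probe 1 moves from -0.97 to -0.18 with normexp, and Pbx3 probe 2 crosses 0.

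Each probe's raw signal was also set beside its own local background. Signals of Hlf, Pknox1, Pbx2 and the RefSeq Pbx3 probe were many times that background on every array, while those of Meis1 and the clone-based Pbx3 probes were near it. Raw signals of Hoxa9 were 90.8 and 79.8 in knockout, against 156.8 and 96.6 in wild type, over local backgrounds of 19 and 20 in knockout and 21 and 23.5 in wild type. On wild-type array 1 its signal was the highest of the 4, and the other 3 lay closer together.

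**Figure D4:**
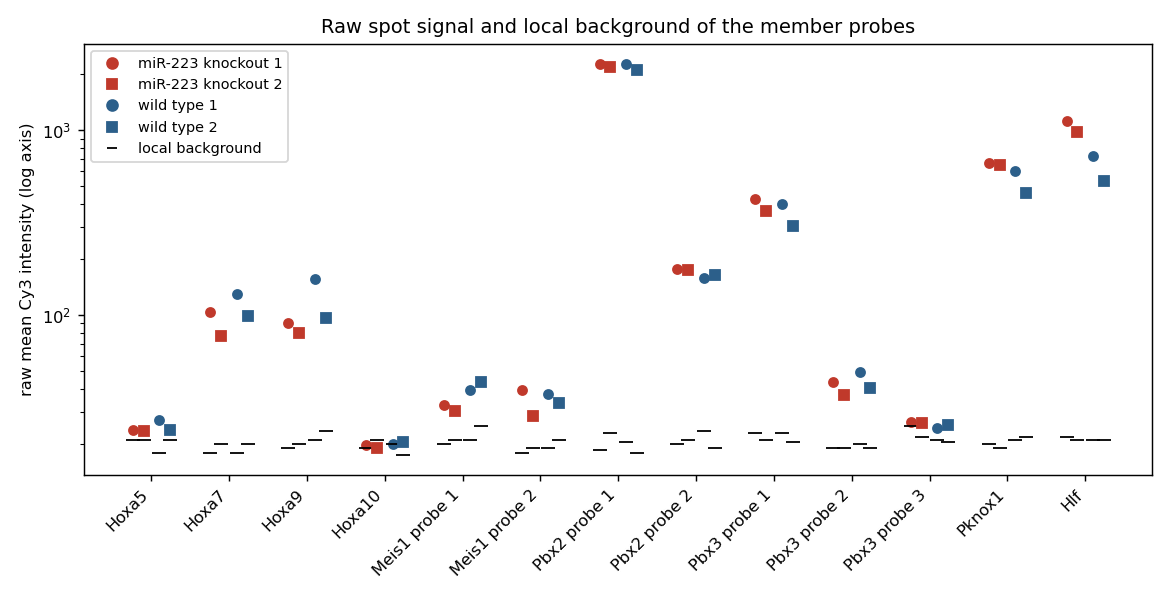
Raw mean Cy3 intensity of each member probe's spot (y axis, log scale) on the 2 knockout arrays (red) and 2 wild-type arrays (blue), with the local background of each spot as a dash. Hoxa5, Hoxa10 and Pbx3 probe 3 sit at the background, and Hlf is above it on all 4 arrays.

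Relatives of the members were read through the brightest probe of each gene, and with all 4 arrays 0 of them passed the adjusted threshold (limma). Among the other Hoxa genes, 3 of 8 were tested, 2 with positive and 1 with a negative difference. Hoxa3 was at 0.29 ± 0.18, and Hoxa4 at 0.18 ± 0.12, which turned to -0.08 with normexp. Hoxa4 was well above background on only 1 wild-type array, so it entered the test only through the knockout arrays. The median of the 3 was 0.18, and -0.08 with normexp.

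Of 27 Hoxb, Hoxc and Hoxd genes on the array, 5 were tested, 4 of them with positive differences and a median of 0.19, which was -0.01 with normexp. Hoxb3 was at 0.28 ± 0.15 (normexp -0.03), Hoxb4, a gene that expands blood stem cells when overexpressed, at 0.19 ± 0.36, Hoxb6 at 0.29 ± 0.18 and Hoxc4 at 0.13 ± 0.16. Signs of Hoxb4 and Hoxc4 also depended on single arrays. Hoxb3 was well above background on only 1 wild-type array, so it entered the test only through the knockout arrays. A second, dim Hoxb6 probe on chromosome 11 (96162563 to 96162622, mm9) was at -5.44 and -5.40 in knockout and at -7.62 and -7.61 in wild type. It was well above background in knockout and not in wild type. It thus entered the test only through the knockout arrays, and no fold is given. On wild-type array 2 the lowest signal well above background, at -5.39, was itself above both knockout values. With normexp the difference of the probe was 0.16. The remaining 22 genes, and 5 of the other Hoxa genes, stayed under the filter on dim probes.

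Among 14 further TALE genes, 6 were tested, 3 higher and 3 lower, with a median of -0.04. Pknox2, the paralogue of Pknox1, was at 0.58 and 0.66 in knockout and at 0.06 and 0.03 in wild type, a difference of 0.58 ± 0.12 (adjusted p = 0.272, limma), with 0.33 and 0.66 on its other probes. Meis3, the paralogue of Meis1, was dim, with a difference of -1.06 ± 0.46 (adjusted p = 0.429, limma). Over the 12 other settings the Meis3 difference ran from -1.74, without wild type replicate 1, to -0.29. It was -0.39 without wild type replicate 2. Tgif2, a repressor of the TALE class, was at -0.38 ± 0.22, and Meis2 and Pbx4 were not well above background.

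Hlf has 2 PAR relatives, Dbp and Tef, and a repressor that binds the same sites, Nfil3. Dbp was at 0.24 ± 0.15, Nfil3 at 0.15 ± 0.15 and Tef at -0.05 ± 0.13, so that the differences were within about the size of 1 to 2 errors. A dim second Tef probe gave 0.99 ± 0.72.

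**Figure D5:**
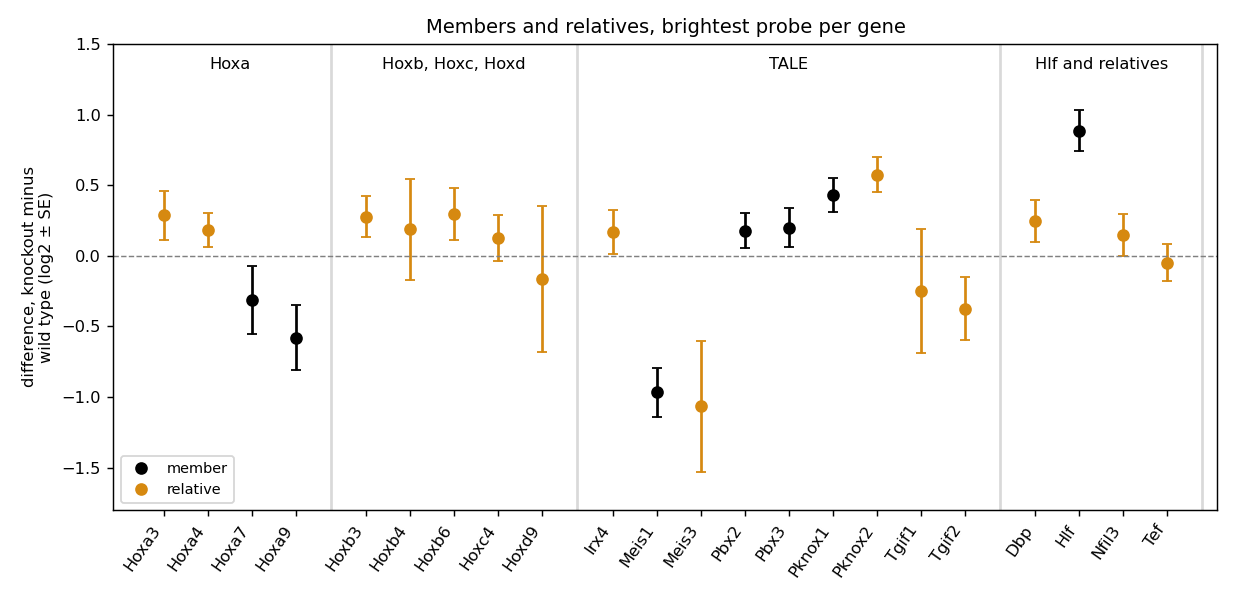
Knockout minus wild-type log2 difference ± SE (y axis, n = 2 arrays per genotype) of the brightest tested probe of each member (black) and of the relatives reported here (orange), by family. Hlf, Pknox1 and Pknox2 are on the positive side, and Meis1 and Meis3 on the negative side.

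Chromatin regulators that keep Hoxa genes on or off were balanced in direction. Of 29 tested, 13 had positive and 16 negative differences. At an unadjusted p under 0.05 (limma) there were 0, where 13% of all tested probes were. The median was -5e-04, which became 0.02 with median scaling and with the authors' values. Ezh1, a methyltransferase of Polycomb complex 2, was at 0.34 ± 0.13 and its paralogue Ezh2 at -0.26 ± 0.14. Mllt1, a partner of MLL in leukaemic fusions and of the elongation machinery, was at -0.30 ± 0.13, and the deubiquitinase Bap1 at -0.26 ± 0.14.

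Genes known as HOX and MEIS targets in blood cells likewise split, 11 positive and 17 negative of 28 tested, with a median of -0.09 that turned to 0.06 without wild type replicate 1. At an unadjusted p under 0.05, 4 were higher and 3 lower, against 7.72% and 5.26% of all probes. The higher ones included Lmo2, a cofactor of blood progenitors, with a difference of 0.91 ± 0.13 (adjusted p = 0.245, limma). Itgb3, an integrin chain, was at 1.26 ± 0.14, though another probe gave 0.39, and the growth factor receptor Igf1r at 0.82 ± 0.14. Igf1, its ligand, was lower at -1.65 ± 0.22, with -1.98 and -1.30 on other probes and -0.88 with normexp. Flt3, a cytokine receptor gene activated by HOXA9 and MEIS1, is also a marker of dendritic cells. It was dim, at -5.55 and -5.71 in knockout, below -4.25 and -5.01 in wild type (adjusted p = 0.323, limma). The Flt3 difference of -0.995 became -0.315 with normexp. Kit and Cd34 were at 0.03 ± 0.21 and -0.36 ± 0.34 with overlapping genotypes.

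Markers of stem and progenitor cells split in direction: 9 of 17 tested were positive and 8 negative, with a median of 0.03 and -0.01 with normexp. Their summed level, in multiples of the array's 75th percentile, was 43.2 and 48.4 in knockout and 41.4 and 40.1 in wild type. Esam, an endothelial and stem cell adhesion gene, was at 0.51 ± 0.20, but it was above background on only 1 wild-type array and at -0.01 with normexp. Gata2, shared by stem and mast cells, was at -0.03 and -1.83 in knockout against 0.99 and 0.98 in wild type, and Mecom stayed at background.

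Markers of other cell types that express some of these factors were read in the same way. With all 4 arrays none of them passed the adjusted threshold (limma), and their part in the member differences was not tested. Meis1 is expressed in megakaryocytes, whose markers were 4 higher and 4 lower of 8 tested, with summed levels of 3.64 and 4.25 in knockout and 5.72 and 11.6 in wild type. In that list Itga2b was at -1.64 ± 0.39 and Pf4 at -1.32 ± 0.53, and Gp1ba was not well above background. Mast cell and basophil markers were lower for 8 of 9 tested, with a median of -1.35 (-0.51 without miR-223 knockout replicate 2) and summed levels of 46.1 and 24.4 in knockout and 64.4 and 72.1 in wild type, while Tpsb2, Tpsab1 and Cma1 were not well above background. Macrophage and monocyte markers were lower for 14 of 17, with a median of -1.07 (-0.63 without miR-223 knockout replicate 2 and -0.68 with normexp). At an unadjusted p under 0.05 (limma), 9 were lower and 2 higher, against 5.26% and 7.72% of all tested probes. Mertk was at -2.04 ± 0.21, Fn1 at -1.91 ± 0.27, Mrc1 at -1.17 ± 0.20 and Vcan at -0.95 ± 0.13. Over the 12 other settings Mertk ran from -2.25 to -0.82 and Vcan from -1.02 to -0.46. The 2 higher ones were Adgre1 at 0.75 ± 0.24 and Ly6c1 at 0.47 ± 0.13. For the whole list, counts and sums were as follows. Summed levels of all macrophage and monocyte markers, 846 and 942 in knockout and 737 and 919 in wild type, overlapped. The sums follow mostly the brightest marker, Lyz2, at 9.38 and 9.52 in knockout and 9.19 and 9.56 in wild type. Dendritic cell markers were lower for 8 of 10, with a median of -0.39 (-0.15 without miR-223 knockout replicate 2 and -0.63 without miR-223 knockout replicate 1) and summed levels of 184 and 124 in knockout and 174 and 189 in wild type. They include Flt3, Siglech at -1.75 ± 0.52 and Cd86 at -0.77 ± 0.14, while Ccl22 was higher at 0.54 ± 0.18. Siglech was well above background on only 1 knockout array, so it entered the test only through the wild-type arrays, where it was higher. At an unadjusted p under 0.05 (limma), 4 of the 10, Siglech among them, were lower and 1 was higher, against 5.26% and 7.72% of all tested probes. Granulocyte genes were higher for 14 of 16, with a median of 0.26 (0.16, with 11 of 16 higher, after quantile normalization, and 0.41 without miR-223 knockout replicate 1) and summed levels of 4238 and 4713 in knockout and 3846 and 4085 in wild type. Of T and NK cell markers, 5 of 10 were tested, with a median of 0.04 (-0.02 with normexp). Thy1, a surface protein of T cells and some progenitors, was at 1.03 ± 0.13, while Cd3e was at 0.03 ± 0.58, Cd3d at -0.26 ± 0.35 and Nkg7 at 0.04 ± 0.17. The summed levels, 139 and 140 in knockout against 80.9 and 76.1 in wild type, follow Thy1, whose own level was 6.85 and 6.93 in knockout and 5.91 and 5.80 in wild type. Cd3g, Ncr1 and Klrb1c were not well above background.

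The genes whose pattern over the 4 arrays was most like those of Meis1 and Hlf were found by the Euclidean distance of mean-centred levels among 16562 genes. For Meis1 they were Plxdc1, Slc39a14 and Cd1d1, at distances of 0.0555, 0.0735 and 0.0751, with differences of -0.92, -1.01 and -0.89. For Hlf they were Btnl9, Afap1l1 and Aff2, at 0.053, 0.0612 and 0.0622, with differences of 0.93, 0.89 and 0.94. Likeness over 4 arrays is given as a description.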

How the data were processed

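The 4 arrays (design 014868) hold an intensity per spot that the authors made, per the file headers, in Feature Extraction 10.5.1.1 by spatial detrending and background subtraction, with no normalization between arrays. All lay on 1 slide and were scanned in 1 run. The authors' deposited log2 values were found by comparison to equal the log2 intensity plus 1 constant per array (99.83% to 99.85% of probes within 0.01), with a median of 5.03 on each array, and served as an alternative.

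Processed intensity was taken to log2, without control and outlier spots, averaged per probe, and centred on the 75th percentile of the array (intensities of 514.2 and 493.3 in knockout and 585.9 and 486.3 in wild type). A probe was tested where both arrays of either genotype had it well above background, 25055 in all, with limma 3.58.1 in R 4.3.3 (moderated linear model, two-sided). P-values were adjusted by Benjamini-Hochberg over these probes, at a threshold of 0.05. Errors are moderated standard errors, with a median over all probes of 0.159. With 4 arrays, precision is limited by their number. The fit was tested on simulated data.

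All member probes are named. Of each other list, up to 4 tested genes with the smallest p were named. Kit, Cd34, Cd3e, Hoxd9, Tgif1, Lyz2, Adgre1, Ly6c1, genes named as being at background, second probes and flanking genes were named after their values were seen. Some genes that the rule names are not reported here. Members and lists were chosen with earlier results of these data known. Of 41174 probes, 26888 were named by accession through RefSeq (GRCm38.p6), 5857 by array name or synonym and 8429 kept the array name. Coordinates of probes are those of the array files (mm9). Alternatives were normexp, quantile, median scaling, the authors' values, other filters, 1 probe per gene, the replicate block and leaving out each array.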

Additional observations from a re-analysis of the deposited data

How the results depend on the processing

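In each of the 12 other settings 0 member probes passed an adjusted p of 0.05, and the smallest member value was 0.0851 (without wild type replicate 1). The median member difference, 0.18 as reported, was -0.14 without the filter on dim probes, where all 13 probes enter, and ran from -0.12 to 0.17 when single arrays were left out. The -0.12, without wild type replicate 2, is over 10 probes, since the second Meis1 probe then passes the filter. Over the 9 probes as reported, a check added after seeing the data, the median was 0.05 to 0.15 with single arrays left out. The count of member probes whose genotypes did not overlap, examined after seeing the data, was 6 to 9 against 7. The share of 47% over all tested probes is for the reported setting with all 4 arrays. It was not computed for the other settings, so this range cannot be read as a result about the members. Over the whole array, 3 probes passed as reported, 6 with normexp and 0 with median scaling, with the authors' values, without the dim-probe filter, with only probes well above background on all 4 arrays, with 1 probe per gene and when replicate numbers formed a block (replicate block). Leaving out single arrays gave 0 to 541 passing probes, 541 without wild type replicate 1, 89 without wild type replicate 2 and 0 without either knockout array; the cause was not tested. The block changed no member call at the adjusted threshold, while Hoxa9 moved to an unadjusted p of 0.0218; same-numbered samples deviated together at a correlation of 0.146, and 2 pairs are too few to show pairing.

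Leaving out single arrays turned the sign of some differences, which then ran from -0.74 to 0.022 for Cd34, -0.32 to 0.70 for Hoxb4, -0.014 to 0.27 for Hoxc4, -0.90 to 0.57 for Hoxd9, -0.22 to 0.29 for Kit, -0.47 to 0.051 for the clone-based Pbx3 probe, -0.115 to 0.017 for Tef and -0.81 to 0.32 for Tgif1. With normexp, signs turned for Esam (-0.0070), Hoxa4 (-0.082), Hoxb3 (-0.027) and Hoxb4 (-0.013). Of the member probe values, 104 kept their direction and side of the threshold and 2 turned. The slide could not be used as a block, since there is 1 slide. Signal over background limits, among others, Meis1, Meis3, Flt3, Siglech, Esam, Hoxa4, Hoxb3 and the second Hoxb6 probe.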
